A study of Mus musculus with 14 samples.

Results

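The bile acid receptors of the liver and their direct partners are described here in 14 mouse livers, through the genes Nr1h4 (FXR), Nr0b2 (SHP), Nr5a2 (LRH-1), Rxra (RXR alpha), Gpbar1 (TGR5) and Ptpn11 (Shp2). These 6 genes were taken by symbol from the 25212 genes counted, and 5 of them, all but Gpbar1, had enough counts to be tested among 14252 genes. The mice were male C57BL/6 animals made obese on a high-fat diet (HFD) and kept on it to the end, and each liver gave 1 library. The 5 DIO mice had diet-induced obesity and no operation. In the 4 GB-IL mice bile was led into the distal small bowel by joining the gallbladder to the ileum, with the common bile duct tied off. The 5 RYGB mice had a Roux-en-Y gastric bypass. By the sample labels tissue was taken 8 weeks after surgery, and the age of each mouse is not given there. A figure caption of the paper instead gives 4 weeks for the liver expression of FXR targets. The DIO mice had no sham operation, so an effect of surgery itself and an effect of the diversion cannot be told apart in comparisons with DIO.

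FXR is a nuclear receptor that binds bile acids and acts as a heterodimer with RXR alpha. In hepatocytes it raises the export of bile salts and induces SHP, a receptor-like repressor without a DNA-binding domain, which in turn holds back LRH-1 and HNF4 alpha on the genes of bile acid synthesis. A second route of feedback runs from the ileum through FGF15 to FGFR4 and beta-Klotho on the hepatocyte, where the phosphatase Shp2 carries the signal. TGR5 is the membrane receptor for bile acids and signals through cyclic AMP. In the liver it is known from cells other than hepatocytes.

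Total counts per liver ran from 18440676 to 21473005 in DIO, from 19231679 to 26131278 in GB-IL and from 18223135 to 28656631 in RYGB. Levels are given as CPM, counts relative to library size scaled between libraries by TMM, and differences as log2 fold changes from edgeR's quasi-likelihood test with a Benjamini-Hochberg adjusted p over all genes tested. A gene was called at an adjusted p under 0.05. The log2 values compare mRNA in whole tissue, in which fewer cells of a type and less RNA per cell cannot be told apart.

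Some libraries stood apart before any of these genes was considered. On the first principal component of all tested genes, which held 48.5% of the variance, GB-IL 1 lay at -134.3 and GB-IL 2 at -106.1, while the other 12 livers lay between -20.1 and 45.7. The tissue label held in every liver, with Alb, the main secreted protein of hepatocytes, the most abundant of 7 hepatocyte markers and none of these markers at 0. Marker sums are given as CPM relative to the total count, without TMM. The summed hepatocyte list was 86116, 98293, 69868 and 116281 CPM in GB-IL 1 to 4, against 116461 to 129244 CPM in DIO and 110085 to 146638 CPM in RYGB. All 4 GB-IL livers were below every DIO liver on this scale, but for GB-IL 4 and DIO 2, the lowest DIO liver, the TMM factors of 1.038 and 1.059 turn the order. Alb made most of each sum. Serpina1c, a secreted protease inhibitor, was likewise below every DIO liver in all 4 GB-IL livers, at 478.2, 1159, 1549 and 1885 CPM against 2203 to 3316 CPM, and Ttr, a carrier of thyroid hormone, in GB-IL 1 to 3. On this scale Serpina1c was also below every DIO liver in all 5 RYGB livers, at 909 to 2110 CPM, and Ttr in RYGB 2 to 5. For Serpina1c in RYGB 3 and DIO 2 the TMM factors of 0.992 and 1.059 turn the order. Tat and Cps1 did not follow: Tat, an enzyme of tyrosine breakdown, stood at 10325, 3931, 2173 and 1375 CPM in GB-IL 1 to 4 and 570.4 to 2310 CPM in DIO, and Cps1, an enzyme of the urea cycle, lay inside its DIO range in all 4 GB-IL livers. The 8 cholangiocyte markers summed to 302.8, 247.4, 207.7 and 61.8 CPM in GB-IL 1 to 4, and to 33.2 to 65.6 CPM in DIO and 59.4 to 72.1 CPM in RYGB. Spp1 was the most abundant of them in all 14 livers and made 192.8 of the 207.7 CPM in GB-IL 3. Krt19, a keratin of bile ducts, stood at 10.4, 12.6, 3.20 and 1.88 CPM in GB-IL 1 to 4 against at most 1.36 CPM in DIO, and Epcam, an adhesion protein of biliary epithelium, at 8.58, 10.1, 1.52 and 1.22 CPM against 0.833 to 2.00 CPM in DIO. Sox9, a transcription factor of biliary cells, did not follow them, with 4.71 to 6.37 CPM in GB-IL, 1.53 to 6.52 CPM in DIO and 3.07 to 9.23 CPM in RYGB. The 6 neutrophil markers summed to 108.1, 47.6, 254.4 and 6.54 CPM in GB-IL 1 to 4, to 83.7 CPM in RYGB 5, and to at most 12.5 CPM in each other liver. The 10 macrophage markers summed to 929.9 to 2253 CPM in GB-IL, above all DIO livers at 400.8 to 709.7 CPM. In RYGB they summed to 458.5 to 1089 CPM, where RYGB 1 and RYGB 5 (800.6 CPM) were also above all DIO livers. The members of the list were not all high in GB-IL 1. There Cd14 made 460 of 1066 CPM, while Clec4f, Cd5l, Timd4 and Adgre1, markers of resident macrophages, stood at 39.4, 60.6, 2.30 and 6.71 CPM, each below every DIO liver. Timd4 and Adgre1 were also below every DIO liver in GB-IL 2, at 2.86 and 13.8 CPM. Clec4f and Cd5l lay inside their DIO ranges in that liver. The 4 pancreas markers stood at 1096 CPM in GB-IL 1, led by Ctrb1 at 807.3 CPM, and at 6.83 to 36.7 CPM elsewhere, where Cela1 led. The 8 stellate cell markers summed to 184.8 to 433.2 CPM in RYGB, above all DIO livers at 120.6 to 167.3 CPM. Reln or Rgs5 was the most abundant in each RYGB liver, and Rgs5 made 221 CPM in RYGB 5. Only Reln was above every DIO liver in all 5 RYGB livers, at 61.04 to 91.57 CPM against 33.05 to 60.04 CPM. The TMM factors of 1.064 and 0.959 turn its order for RYGB 2 and DIO 4. All other markers of this list overlapped between RYGB and DIO, and Acta2 tended lower, at 1.05 to 4.22 CPM against 1.67 to 8.11 CPM. In GB-IL the stellate list summed to 118.9 to 380.9 CPM, the highest in GB-IL 1. There Des, an intermediate filament of muscle and stellate cells, made 226.7 CPM against 3.54 to 11.7 CPM in each other liver. The 8 sinusoidal endothelial markers stood at 689.6 CPM in RYGB 5, led by Stab2, and at 222.2 to 324.7 CPM in the other livers. The 4 intestinal markers summed to 38.5 to 45.3 CPM in GB-IL 1 to 3, 232.5 CPM in GB-IL 4, 88.2 to 221.6 CPM in DIO and 72.8 to 129.2 CPM in RYGB, and the 7 lymphocyte markers overlapped between the groups. The part of these tissue differences in the values that follow was not tested.

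**Figure D1:**
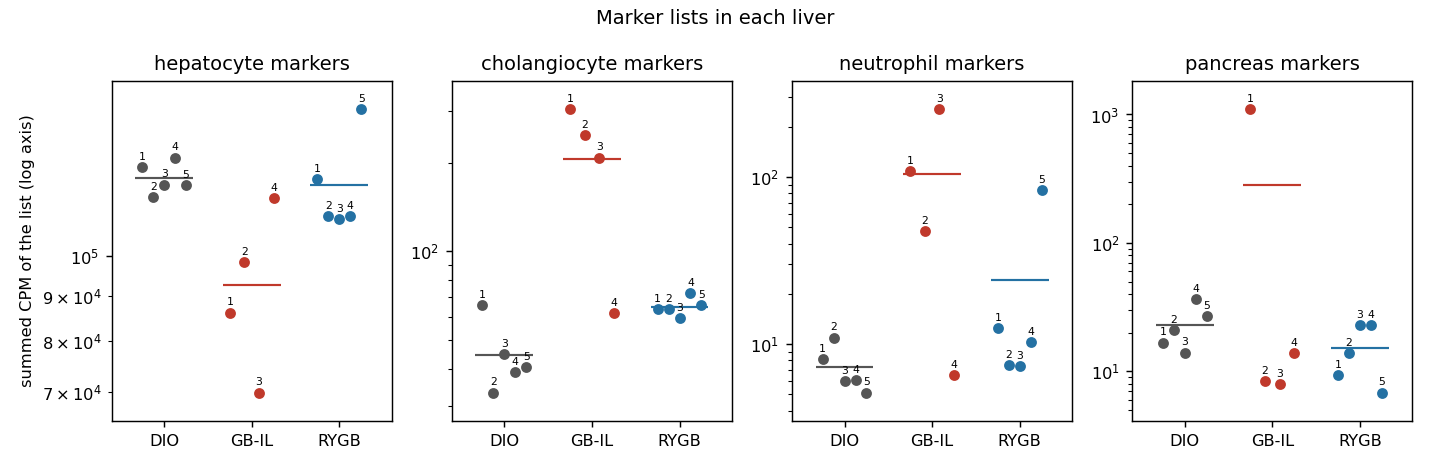
Summed CPM (log axis, scaled to the total count) of the marker lists for hepatocytes, cholangiocytes, neutrophils and pancreas in each of 14 livers, numbered by replicate, with the arithmetic mean of each group as a line. GB-IL 1 to 3 sit above the DIO livers for cholangiocyte and neutrophil markers, and GB-IL 1 alone is high for pancreas markers, at 1096 CPM.

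None of the 5 tested genes was called by edgeR in GB-IL against DIO, a comparison that called 465 of 14252 genes (3.26%), 449 higher and 16 lower in GB-IL. Nr1h4 alone of the 5 passed an unadjusted p of 0.05 there, as did 3297 genes (23.1%). DESeq2 called 1292 genes (9.07%) and voom 589 (4.13%), again with 0 of the 5. The count of 465 rested on single livers, being 0 without GB-IL 1, without GB-IL 2 or without any 1 of the 5 DIO livers, 294 without RYGB 3 and 3572 without GB-IL 4. It was also 0 with GB-IL 1 and 2 both left out. Against DIO, RYGB gave no call by edgeR among all genes (0%) or among the 5, with 1241 genes (8.71%) and 0 of the 5 at an unadjusted p of 0.05. DESeq2 called 97 genes there (0.681%) and voom 1690 (11.9%), with 0 of the 5 by either tool. The edgeR count there was 5 without GB-IL 4 and 1 without RYGB 4. Between GB-IL and RYGB edgeR called no gene (0%), with 3147 genes (22.1%) and 0 of the 5 at an unadjusted p of 0.05, while DESeq2 called 845 (5.93%) and voom 115 (0.807%), and 0 of the 5. The edgeR count there was 24 without GB-IL 3 and 3120 without GB-IL 4. Groups did not overlap in CPM at 0 of the 5 genes in each comparison, where 4.17% of all genes did so between GB-IL and DIO, 3.53% between RYGB and DIO and 2.84% between GB-IL and RYGB. The comparisons with DIO share the same 5 DIO livers.

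Nr1h4 encodes the bile acid receptor FXR on the minus strand of GRCm38 (mm10) at chr10:89454234-89533585. In DIO 1 to 5 its level was 93.8, 124, 125.6, 150.7 and 161.4 CPM. In GB-IL 1 to 4 it was 26.2, 50.4, 116.5 and 117.6 CPM, and in RYGB 1 to 5 it was 118.9, 95.3, 98.3, 96.6 and 81.9 CPM. GB-IL 1 and 2 lay below every DIO and RYGB liver, whereas GB-IL 3 and 4 lay inside the DIO range, and RYGB 5 was the only RYGB liver under the lowest DIO liver. DIO averaged 131.1 CPM ± 26.3 (SD, n = 5), GB-IL 77.7 CPM ± 46.5 (SD, n = 4) and RYGB 98.2 CPM ± 13.3 (SD, n = 5). For GB-IL against DIO the log2 fold change was -0.75 with a standard error of 0.348 and a 95% interval of -1.50 to -0.01, at an edgeR adjusted p of 0.210. It was -0.42 for RYGB against DIO (edgeR adjusted p = 0.744) and -0.34 for GB-IL against RYGB (edgeR adjusted p = 0.554). For RYGB against DIO voom gave -0.53, at an adjusted p of 0.0581. The GB-IL difference from DIO was -0.48 without GB-IL 1 and -1.03 without GB-IL 4. The difference between GB-IL and RYGB was -0.063 and -0.614 without the same livers. With both GB-IL 1 and GB-IL 2 left out, a choice made after seeing the data, the GB-IL difference from DIO was -0.18.

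Nr0b2, which encodes SHP, lies on the plus strand at chr4:133553376-133556536. Its level in DIO 1 to 5 was 48.9, 7.13, 23.8, 13.8 and 17.5 CPM. In GB-IL 1 to 4 it was 3.83, 3.61, 26.7 and 37.2 CPM, and in RYGB 1 to 5 it was 32.1, 18.4, 61.5, 49.2 and 18.1 CPM. The lowest values of all 14 livers were those of GB-IL 1 and 2, but the 3 groups overlapped, since DIO 2 was also low and DIO 1 was close to RYGB 4. DIO averaged 22.2 CPM ± 16.1 (SD, n = 5), GB-IL 17.8 CPM ± 16.9 (SD, n = 4) and RYGB 35.9 CPM ± 19.2 (SD, n = 5). On the log2 scale GB-IL differed from DIO by -0.31 (SE 0.680), RYGB from DIO by 0.69 (SE 0.639) and GB-IL from RYGB by -1.002 (SE 0.689), at edgeR adjusted p of 0.792, 0.792 and 0.384. The 95% interval for RYGB against DIO, -0.67 to 2.05, leaves room for a sizeable difference either way. Within the DIO group the coefficient of variation of Nr0b2 was 72.4%, and 1.58% of the 12696 tested genes with a mean of at least 1 CPM varied more there, where the median gene had 19.2%. For Nr0b2 it was 94.5% in GB-IL and 53.4% in RYGB, exceeded by 5.34% and 5.99% of those genes. The sign of its GB-IL difference from DIO turned without GB-IL 1 (0.01), GB-IL 2 (0.01) or DIO 1 (0.19). Over the alternatives the difference ran from 0.407 to 1.209 between RYGB and DIO, and from -1.651 to -0.186 between GB-IL and RYGB.

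Nr5a2 encodes LRH-1, the receptor on which SHP acts, on the minus strand at chr1:136842571-136960448. Its level was 39.6, 62.9, 30.1, 29.4 and 42.4 CPM in DIO 1 to 5. It was 16.9, 21.0, 37.6 and 43.3 CPM in GB-IL 1 to 4 and 31.5, 41.7, 52.7, 59.5 and 35.8 CPM in RYGB 1 to 5. GB-IL 1 and 2 were again the lowest of the 14 livers, and the other 12 livers overlapped between groups. In log2 terms LRH-1 mRNA differed by -0.46 (SE 0.305) between GB-IL and DIO, by 0.11 (SE 0.285) between RYGB and DIO and by -0.57 (SE 0.305) between GB-IL and RYGB, at edgeR adjusted p of 0.355, 0.933 and 0.276. Over the alternatives the difference ran from -0.705 to -0.033 between GB-IL and DIO, and from -0.818 to -0.151 between GB-IL and RYGB.

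Rxra, the obligate partner of FXR and of several other receptors, lies on the plus strand at chr2:27676440-27762957. It read 383.3, 481.4, 489, 566.2 and 542.7 CPM in DIO 1 to 5. In GB-IL 1 to 4 it read 535.3, 371.6, 463.1 and 424.8 CPM, and in RYGB 1 to 5 it read 513.8, 437.6, 456.8, 542.4 and 338.9 CPM. No group lay apart, and GB-IL 1, the lowest liver for Nr1h4, had the highest Rxra of its group. Rxra differed in log2 terms by -0.13 (SE 0.196) between GB-IL and DIO, by -0.11 (SE 0.185) between RYGB and DIO and by -0.03 (SE 0.196) between GB-IL and RYGB, at edgeR adjusted p of 0.679, 0.906 and 0.936. The 95% intervals of the differences from DIO ran from -0.55 to 0.28 for GB-IL and from -0.50 to 0.29 for RYGB.

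Ptpn11, the gene of the phosphatase Shp2, lies on the minus strand at chr5:121130533-121191397. Its 61.1, 67.6, 54.2, 67.4 and 69.9 CPM in DIO 1 to 5 gave the narrowest DIO group of the 5 genes, with a coefficient of variation of 9.96%. GB-IL 1 to 4 had 97.5, 46.9, 55.4 and 68.9 CPM, and RYGB 1 to 5 had 59.7, 65.5, 70.4, 69.7 and 82.6 CPM. GB-IL 1 was the highest of all 14 livers and GB-IL 2 the lowest, so that the GB-IL livers lay on both sides of DIO. Ptpn11 differed in log2 terms by 0.07 between GB-IL and DIO, by 0.12 between RYGB and DIO and by -0.05 between GB-IL and RYGB, with edgeR adjusted p of 0.845, 0.889 and 0.889. Gm42930, a gene model that the annotation classes as TEC, overlaps the Ptpn11 gene on the same strand but none of its exons, and no other annotated gene overlaps any of the 6.

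Gpbar1, the gene of the membrane receptor TGR5, lies on the plus strand at chr1:74278550-74279624 and was near the limit of detection. It had 0 counts in each of the 5 DIO and 4 GB-IL livers, 0 in RYGB 2 and 1 count in each of RYGB 1, 3, 4 and 5. Over the summed totals, 4 counts in RYGB make 0.0349 CPM with an exact Poisson 95% interval of 0.00951 to 0.0893 CPM. A count of 0, read as at most 3 counts, allows up to 0.0304 CPM in DIO and 0.0330 CPM in GB-IL. The exact Poisson 95% interval of a count of 0 ends at 0.0373 CPM in DIO and 0.0406 CPM in GB-IL. These limits lie inside the RYGB interval, and no liver had more than 1 count. An exact two-sided permutation test over livers gave p = 0.0476 between RYGB and DIO, the smallest p that these counts can give there, p = 0.0476 between GB-IL and RYGB, and p = 1 between GB-IL and DIO, all without adjustment. Intervals and limits here cover counting error only.

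**Figure D2:**
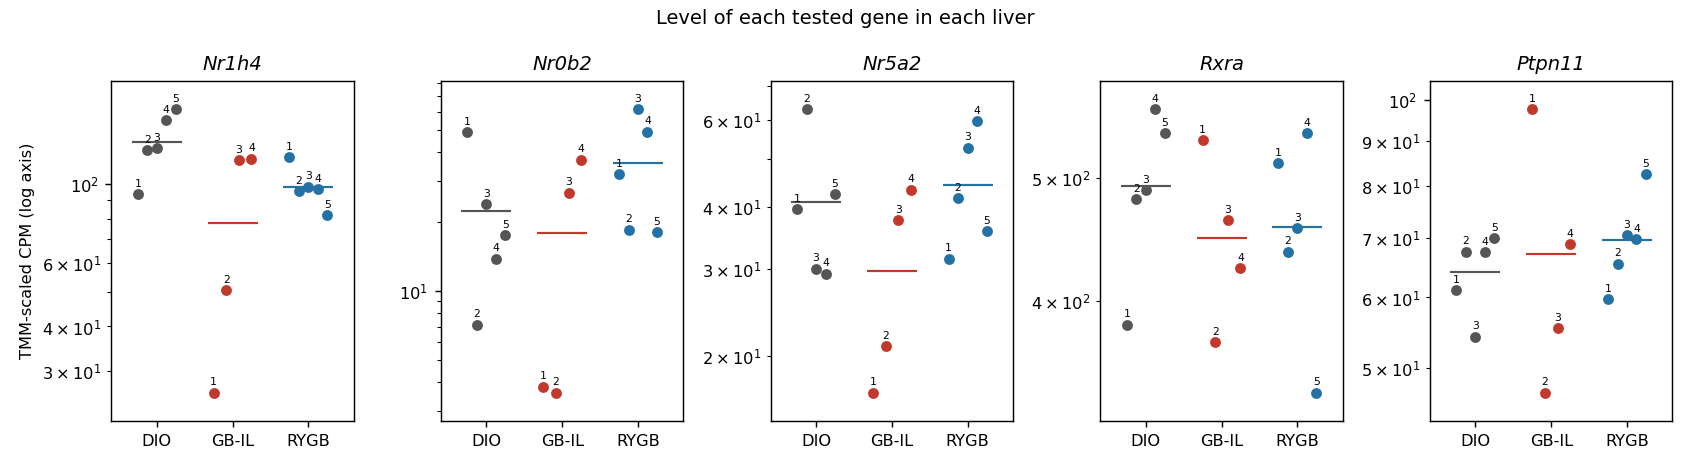
TMM-scaled CPM (log axis) of the 5 tested genes in each of 14 livers, numbered by replicate, with the arithmetic mean of each group as a line. GB-IL 1 and 2 are the lowest livers for Nr1h4, Nr0b2 and Nr5a2 and lie within or beside the other livers for Rxra, and GB-IL 1 is the highest for Ptpn11.

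Per kilobase of exon the receptors differed widely in level. Among 40 nuclear receptors with enough counts, Hnf4a ranked first in every group, at 143.8 CPM per kilobase ± 27.4 (SD, n = 5) in DIO. Rxra ranked second in all 3 groups by this length, at 90.2 CPM per kilobase ± 12.95 (SD, n = 5) in DIO, close to Nr1i3 (CAR, a xenobiotic receptor) at 86.2 CPM per kilobase ± 25 (SD, n = 5), a gap within their spread. With the length of the longest transcript in place of all exons the order of this pair turned in DIO, to 127.7 CPM per kilobase for Nr1i3 and 100.4 CPM per kilobase for Rxra. By all exons Nr1h4 came next in DIO at 56.9 CPM per kilobase ± 11.4 (SD, n = 5), followed by Nr1h3 (LXR alpha) at 44.7 CPM per kilobase ± 10.02 (SD, n = 5). By this length the gap was slightly larger than the SD of either gene. By the longest transcript Nr1h4 had 65.1 and Nr1h3 56.6 CPM per kilobase, a smaller gap. In GB-IL Nr1h4 stood at 33.7 CPM per kilobase ± 20.2 (SD, n = 4), behind Nr1h3 at 38.8 CPM per kilobase ± 17.5 (SD, n = 4). That gap was also within their spread. Nr0b2 held 19.6 CPM per kilobase ± 14.2 (SD, n = 5) in DIO, and Nr5a2 held 6.93 CPM per kilobase ± 2.305 (SD, n = 5), rank 16. Rxrb and Rxrg, the other RXR genes, stood at 9.02 and 2.72 CPM per kilobase in DIO, and Nr1h5, the paralogue of FXR, at 0.939 CPM per kilobase. Rxrg read 1.21, 0.791, 3.82 and 4.80 CPM in GB-IL 1 to 4, all below the DIO range of 4.97 to 8.55 CPM, with a log2 fold change of -1.22 (SE 0.415) and an edgeR adjusted p of 0.110. DESeq2 gave Rxrg an adjusted p of 0.0340 in that comparison, and the log2 fold change ran from -1.67 to -0.55 over the alternatives. In RYGB, 4 of 5 livers were also below every DIO liver for Rxrg. The log2 fold change of RYGB against DIO was -0.57, at an adjusted p of 0.701 by edgeR and 0.0400 by voom.

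Ratios of counts within 1 liver do not depend on how libraries are scaled. The log2 ratio of Rxra to Nr1h4 was 2.03, 1.96, 1.96, 1.91 and 1.75 in DIO 1 to 5, the tightest of the ratios in any group, with an SD of 0.105. In GB-IL 1 to 4 it was 4.35, 2.88, 1.99 and 1.85, and in RYGB 1 to 5 it was 2.11, 2.20, 2.22, 2.49 and 2.05. GB-IL 1 lay far above each other liver, and GB-IL 2 was above the other 12, next to RYGB 4 at 2.49. GB-IL 3 and 4 lay within the DIO range, and all 5 RYGB livers lay above all 5 DIO livers, RYGB 5 narrowly. Rxra was the only 1 of 4 genes whose ratio to Nr1h4 did not overlap between RYGB and DIO, as did 614 of the 14251 other tested genes (4.31%). Between GB-IL and DIO the share over all genes was 4.52% and between GB-IL and RYGB it was 1.52%, with 0 of the 4 genes in each.

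The ratio of Nr0b2 to Nr1h4, a pair in which the product of the second induces the first, was -0.94, -4.12, -2.40, -3.45 and -3.21 on the log2 scale in DIO 1 to 5. It was -2.77, -3.80, -2.12 and -1.66 in GB-IL 1 to 4 and -1.89, -2.37, -0.68, -0.97 and -2.18 in RYGB 1 to 5. DIO 2 to 5 lay below every RYGB liver, DIO 3 narrowly, but DIO 1 lay among the highest, so that the groups overlapped. The log2 ratio of Ptpn11 to Nr1h4 ran from -1.21 to -0.62 in DIO and from -0.99 to 0.01 in RYGB, and reached 1.90 in GB-IL 1. For Nr5a2 to Nr1h4 the ranges were -2.36 to -0.98 in DIO, -1.63 to -0.63 in GB-IL and -1.92 to -0.70 in RYGB. Set against Hnf4a, a denominator chosen after seeing the data, Rxra had log2 ratios from -0.765 to -0.407 in GB-IL, where Nr1h4 ran from -4.869 to -2.315. In DIO the spans of Rxra and Nr1h4 were alike, 0.787 and 0.856.

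**Figure D3:**
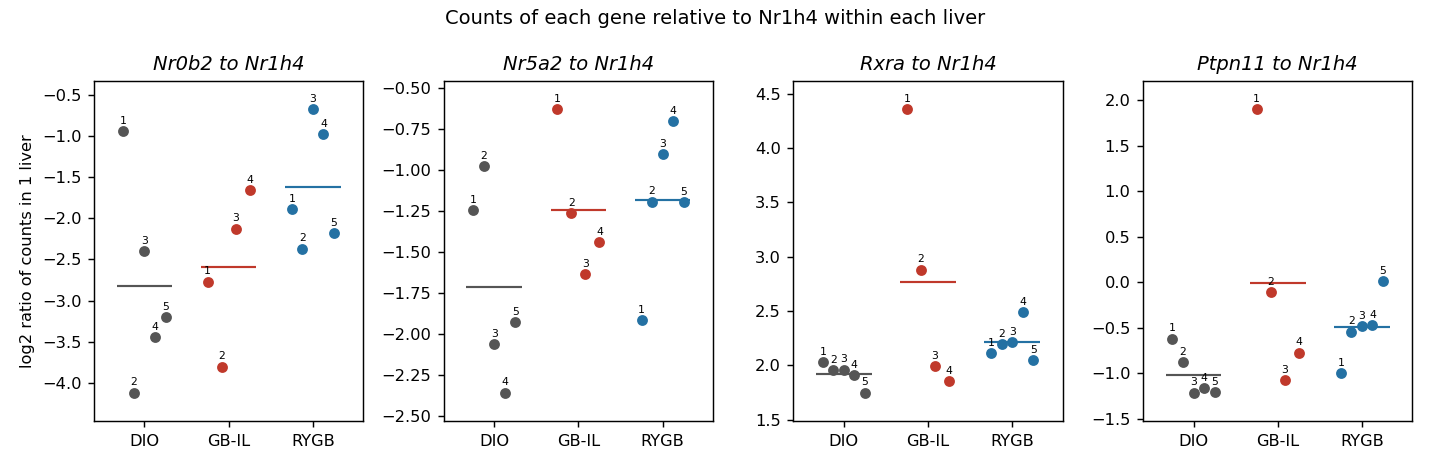
Log2 ratio of the counts of Nr0b2, Nr5a2, Rxra and Ptpn11 to those of Nr1h4 in each of 14 livers, numbered by replicate, with the mean of each group as a line. For Rxra the 5 RYGB livers lie between 2.05 and 2.49, above the 5 DIO livers at 1.75 to 2.03, and GB-IL 1 is highest at 4.35.

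Over all 14252 genes tested, 2381 were higher and 916 lower in GB-IL against DIO at an unadjusted p of 0.05 (23.1% together), 762 and 479 in RYGB against DIO (8.71%), and 2182 and 965 in GB-IL against RYGB (22.1%), the background to the counts of each gene list here. By adjusted p, edgeR called 3.26% of all genes in GB-IL against DIO, DESeq2 9.07% and voom 4.13%. In RYGB against DIO these shares were 0%, 0.681% and 11.9%. Of 15 genes known to be induced by FXR in liver, 13 could be tested and none was called by edgeR against DIO. At an unadjusted p of 0.05, 2 were higher and 0 lower in GB-IL against DIO, 1 was higher in RYGB against DIO, and DESeq2 called 1 and 0 of them, voom 0 and 1. Their median log2 fold change was -0.04 in GB-IL against DIO, where that of all genes was 0.04, and 0.11 in RYGB against DIO, where that of all genes was 0.01. Abcb11, the bile salt export pump, read 602.2, 609.1, 366.1, 372.1 and 366.6 CPM in DIO 1 to 5, and 15.5, 38.1, 369.3 and 466.8 CPM in GB-IL 1 to 4. It read 278.5, 667.1, 647.9, 554.3 and 264.8 CPM in RYGB 1 to 5. GB-IL 1 and 2 thus had far less Abcb11 mRNA than each other liver, and the log2 fold change of GB-IL against DIO was -1.06 (SE 0.715) at an edgeR adjusted p of 0.363, and ran from -1.88 to -0.17 over the alternatives. Osgin1, an oxidative stress response gene, had 105.1 to 257.3 CPM in RYGB and 66.3 to 146.9 CPM in DIO, with a log2 fold change of 0.93 (SE 0.332) and an adjusted p of 0.479 by edgeR and 0.006645 by voom. Fetub, a secreted fetuin, was above every DIO liver in all 5 RYGB livers and in 3 of 4 GB-IL livers. GB-IL 4, at 353 CPM, was below every DIO liver. The log2 fold changes of Fetub were 0.60 in RYGB and 0.91 in GB-IL, with edgeR adjusted p of 0.579 and 0.107. For GB-IL against DIO the adjusted p of Fetub was 0.0418 by DESeq2, and ran from 0.00306 to 0.737 over the alternatives. For Slc51b, a basolateral bile acid exporter with too few counts to be tested, the summed counts were 15 in DIO, 38 in GB-IL and 88 in RYGB, of which 1 RYGB liver gave 49.

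All 11 genes of bile acid synthesis and uptake were tested and none was called by edgeR against DIO. Against DIO, 9 of the 11 lay below 0 in GB-IL, 2 of them at an unadjusted p of 0.05, with a median log2 fold change of -0.66 beside 0.04 over all genes. DESeq2 and voom called 0 of them there. Over all genes 23.1% passed that unadjusted p. In RYGB against DIO 5 of the 11 lay below 0, with a median of 0.07, 0 at an unadjusted p of 0.05, 0 calls by DESeq2 and 1 by voom. Voom called 11.9% of all genes in RYGB against DIO. Cyp7a1, the rate-limiting enzyme of bile acid synthesis, read 56.9, 163.1, 90.2, 230.7 and 169 CPM in DIO 1 to 5, 2.84, 15.6, 221.4 and 123.1 CPM in GB-IL 1 to 4, and 432, 231.6, 127.5, 39.6 and 117 CPM in RYGB 1 to 5. Its livers spread so widely in every group that the log2 fold change of GB-IL against DIO, -0.65, had a standard error of 0.886 (edgeR adjusted p = 0.658). Over the alternatives it ran from -1.59 to 0.25, so that its sign turned. Cyp8b1, which sets the share of cholic acid, had 346.8, 78.4, 57.2 and 505 CPM in GB-IL 1 to 4 against 174.5 to 523.9 CPM in DIO, so that here GB-IL 2 and 3 were low rather than 1 and 2. Slc10a1, the sodium-dependent bile acid uptake carrier, stood at 285.7, 260.2, 386.4 and 524 CPM in GB-IL 1 to 4 and at 501.1 to 682.3 CPM in DIO, with a log2 fold change of -0.66 (SE 0.271) and an edgeR adjusted p of 0.169. Without GB-IL 4 that adjusted p was 0.0288, the lowest of a range up to 0.896 over the alternatives. Cyp7b1, of the alternative pathway of synthesis, was below every DIO liver in 3 of 4 GB-IL livers, with a log2 fold change of -1.33 (SE 0.581) and an edgeR adjusted p of 0.191.

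Among 7 known LRH-1 targets none was called by edgeR against DIO, with 1 higher in GB-IL at an unadjusted p of 0.05, 0 in RYGB against DIO, and 0 by DESeq2 or voom. Their medians were -0.46 in GB-IL and 0.11 in RYGB against DIO. Apom, an apolipoprotein of high-density particles, read 254.4, 624.1, 373.2 and 126.9 CPM in GB-IL 1 to 4 and 136 to 268.5 CPM in DIO, with a log2 fold change of 0.86 (SE 0.352) and an edgeR adjusted p of 0.170. Apoa1, the main protein of those particles, was above every DIO liver in 3 of 4 GB-IL livers, at a log2 fold change of 0.66 (SE 0.340) and an edgeR adjusted p of 0.251. Of 36 other nuclear receptors tested, edgeR called Nr4a1 in GB-IL against DIO, beside 3.26% of all genes. There 3 were higher and 5 lower at an unadjusted p of 0.05, and DESeq2 called 3 and voom 0. The shares of all genes were 23.1%, 9.07% and 4.13%. In RYGB against DIO edgeR called 0 of them, with 4 higher and 4 lower at an unadjusted p of 0.05, 1 call by DESeq2 and 11 by voom, beside 8.71%, 0.681% and 11.9% of all genes. Nr4a1, an immediate-early orphan receptor, read 10.9, 12.0, 2.88 and 1.62 CPM in GB-IL 1 to 4, 1.58 to 1.94 CPM in DIO and 2.73 to 6.37 CPM in RYGB. It rose in GB-IL by a log2 fold change of 1.95 (SE 0.480, edgeR adjusted p = 0.0415), higher than all DIO livers in 3 of 4 GB-IL livers, and was not called by voom (adjusted p = 0.242), nor by edgeR without any 1 of GB-IL 1 and 2, RYGB 2 to 4 or the 5 DIO livers. It was called in 10 of 24 alternatives. Its log2 fold change ran from 0.33 to 2.27, and its adjusted p from 0.00191 to 0.942. Every RYGB liver also had more Nr4a1 than every DIO liver, at an adjusted p of 0.416 by edgeR, 0.112 by DESeq2 and 0.00520 by voom. Hnf4a, the receptor with which SHP and LRH-1 share targets, differed from DIO by -0.10 in GB-IL and -0.09 in RYGB on the log2 scale (edgeR adjusted p = 0.782 and 0.921). Nr0b1 and Nr2e3 were not analysed here.

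None of 19 coregulators was called by edgeR against DIO, with 3 higher and 2 lower in GB-IL and 1 higher in RYGB against DIO at an unadjusted p of 0.05, while DESeq2 called 1 and 0 and voom 0 and 1. Prmt1, an arginine methyltransferase, read 40.9, 43.1, 15.2 and 10.4 CPM in GB-IL 1 to 4 and 9.45 to 14.4 CPM in DIO, with a log2 fold change of 1.11 (SE 0.348) and an adjusted p of 0.0899 by edgeR and 0.0384 by DESeq2. Its log2 fold change was -0.02 with GB-IL 1 and 2 both left out, and its adjusted p ran from 0.00555 to 0.996 over the alternatives. Smarca2, an ATPase of chromatin remodelling, stood at 34.8, 46.3, 94.2 and 94.2 CPM in GB-IL 1 to 4 and 84 to 134.6 CPM in DIO, with a log2 fold change of -0.76 (SE 0.280) and an edgeR adjusted p of 0.134. Of 21 genes tested from the FGF15 receptor complex and the Shp2 cascade, edgeR called Gab2 in GB-IL against DIO, beside 3.26% of all genes. At an unadjusted p of 0.05, 3 were higher and 0 lower there, and DESeq2 called 2 and voom 1. The shares of all genes were 23.1%, 9.07% and 4.13%. In RYGB against DIO edgeR called 0 of the 21, with 1 higher at an unadjusted p of 0.05, 0 calls by DESeq2 and 3 by voom. The shares of all genes there were 8.71%, 0.681% and 11.9%. Gab2, a docking protein that recruits Shp2, read 18.5, 4.41, 6.57 and 5.31 CPM in GB-IL 1 to 4 and 2.54 to 3.79 CPM in DIO, with the groups apart. Its log2 fold change was 1.42 (SE 0.371), and its edgeR adjusted p of 0.0499 sat at the threshold and was lost without any 1 of GB-IL 1 and 2, the 5 DIO or the 5 RYGB livers. The call was also lost with no filter, a mean of at least 50 counts, the replicate block, or only the 2 groups fitted. Gab2 was called in 7 of 24 alternatives. Over these 24 its adjusted p ran from 0.007215 to 0.222 and its log2 fold change from 0.74 to 1.63. Klb, the co-receptor beta-Klotho, stood at 14.6, 17.2, 16.8 and 28.3 CPM in GB-IL 1 to 4, 17.9 to 39.6 CPM in DIO and 27.0 to 37.6 CPM in RYGB. Between GB-IL and RYGB its log2 fold change was -0.78 (SE 0.239), at an adjusted p of 0.115 by edgeR and 0.0470 by DESeq2. Fgfr4, its receptor partner, differed from DIO by 0.21 in GB-IL and 0.31 in RYGB (edgeR adjusted p = 0.502 and 0.664), and Ptpn6, the paralogue of Ptpn11, by 0.14 and -0.21 (edgeR adjusted p = 0.751 and 0.845). The first of these Ptpn6 values turned sign over the alternatives, from -0.20 to 0.53. Fgf15 was not analysed here.

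The 9 genes of TGR5 signalling gave no call by edgeR against DIO, with 2 lower in GB-IL and 1 higher in RYGB against DIO at an unadjusted p of 0.05, 1 and 0 by DESeq2, and 0 and 1 by voom. Over all genes the shares were 23.1% and 8.71% at that unadjusted p, 9.07% and 0.681% by DESeq2, and 4.13% and 11.9% by voom. Gnas, the stimulatory G protein that couples TGR5 to adenylate cyclase, read 51.6, 30.7, 61.7 and 68.4 CPM in GB-IL 1 to 4, each below the DIO range of 75.3 to 82.3 CPM. Its log2 fold change was -0.56 (SE 0.190), at an adjusted p of 0.107 by edgeR and 0.0384 by DESeq2. Prkar1a, a regulatory subunit of protein kinase A, was above all DIO livers in all 5 RYGB livers. Its log2 fold change there was 0.32 (SE 0.141), at an adjusted p of 0.547 by edgeR and 0.0353 by voom. Of the 115 tested genes of the 7 lists, 3 did not overlap in CPM between GB-IL and DIO and 8 between RYGB and DIO. The shares of all genes without overlap were 4.17% and 3.53%. Between GB-IL and RYGB edgeR called 0 of the 115 tested genes of the 7 lists, with 8 higher and 18 lower at an unadjusted p of 0.05, 4 calls by DESeq2 and 0 by voom, beside 22.1%, 5.93% and 0.807% of all genes. Cyp7b1, Nr4a3, Carm1 and Klb were those 4. The 115 had a median log2 fold change of -0.18, beside 0.03 over all genes.

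Likeness was measured by Pearson's r of log2 CPM over the 14 livers, as a description with no p, over points that share a library for both genes and fall into 3 groups. The most alike were picked from 12695 genes. Nearest to Nr1h4 were Dhrs1 (r = 0.98), Ddo (r = 0.98) and Pex26 (r = 0.97). Leaving out GB-IL 1 and 2, the livers farthest from the median, gave 0.866, 0.951 and 0.845. Nr0b2 was nearest to Gm4952 (r = 0.897), Ncald (r = 0.865) and Dct (r = 0.864), with lower values of 0.747, 0.656 and 0.625 without the same livers. For Nr5a2 the nearest were Vps13c (r = 0.98), Uty (r = 0.98) and Aaed1 (r = 0.97), and 0.954, 0.953 and 0.942 without GB-IL 1 and 2. Ptpn11 was nearest to Trappc10 (r = 0.959), Scaf8 (r = 0.947) and Dnajc5 (r = 0.946), and these gave 0.915, 0.846 and 0.865 without them. Rxra was nearest to 2310022B05Rik (r = 0.889), Ivd (r = 0.847) and Mocs1 (r = 0.824), which gave 0.869, 0.660 and 0.681 without RYGB 5 and GB-IL 2, the farthest livers for Rxra. With group means subtracted, 0 of the 3 genes nearest to Nr0b2 stayed among its nearest 3. For Rxra and Ptpn11 1 of 3 stayed, and for Nr1h4 and Nr5a2 2 of 3. Nr0b2 and Abcb11 had an r of 0.763 and a Spearman rho of 0.512, and an r of 0.189 without GB-IL 1 and 2, so this relation rested on those livers. Nr1h4 and Abcb11 likewise went from 0.849 to -0.256, and Nr1h4 and Nr0b2 from 0.565 to -0.431, while Nr5a2 and Abcb11 went from 0.867 to 0.701. For Nr1h4 and Rxra, the partners in the heterodimer, r was 0.220, with 0.744 without GB-IL 1 and 2, -0.025 without RYGB 5 and GB-IL 2, and 0.099 within groups, so that it depended on which livers were left out.

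The promoters of Nr0b2 and Abcb11 are shown because both genes were lowest in GB-IL 1 and 2 and both are known targets of the receptors described. All 6 genes had a promoter entry in RefSeq on GRCm38.p6, and the 250 bases before the start were searched on both strands. Both sequences are printed 5′ to 3′ on the strand of the gene, chr4:133553126-133553375 (plus) for Nr0b2 and chr2:69342617-69342866 (minus) for Abcb11, with the letters matched by a search in capitals.
Nr0b2: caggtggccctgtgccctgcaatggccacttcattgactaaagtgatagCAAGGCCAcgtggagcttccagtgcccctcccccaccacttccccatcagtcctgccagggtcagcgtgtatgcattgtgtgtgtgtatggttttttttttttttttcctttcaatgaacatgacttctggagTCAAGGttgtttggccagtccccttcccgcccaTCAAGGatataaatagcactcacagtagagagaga
Abcb11: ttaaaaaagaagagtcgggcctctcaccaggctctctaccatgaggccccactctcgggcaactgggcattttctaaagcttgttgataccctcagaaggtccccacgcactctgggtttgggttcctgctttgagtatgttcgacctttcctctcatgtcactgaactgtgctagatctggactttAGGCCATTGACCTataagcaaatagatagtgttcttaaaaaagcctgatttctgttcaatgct
The Nr0b2 window held TCAAGG at 68 to 63 and at 35 to 30 bases before the start, and CAAGGCCA, a match to CAAGGNCA, at 201 to 194. Of 32851 windows of this length, 12.5% held TCAAGG and 5.53% CAAGGNCA. The Abcb11 window held AGGCCATTGACCT, a match to the inverted repeat of AGGNCA and TGNCCT with any 1 base between, at 63 to 51 bases before the start, which takes in TGACCT, the reverse complement of AGGTCA. That repeat was in 28 windows (0.0852%) and AGGTCA in 4607 (14%). With AGGTCA and TGACCT on its sides, the repeat was in 2 windows (0.00609%) and not in these. The letters TCAAGG and those of the first repeat were chosen after these sequences had been read, and a match is only a description of the letters.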

How the data were processed

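The deposited values are whole read counts per gene, made by the authors with TopHat2 and HTSeq and not normalized. Their labels list the builds mm10 and hg19, give no tool versions, and name 2 library kits without saying which liver had which. Here edgeR 4.0.16, limma 3.58.1 and DESeq2 1.42.0 were used under R 4.3.3. Low counts were removed by filterByExpr by group, libraries scaled by TMM, and the 3 group means fitted by edgeR's quasi-likelihood model without robust estimation, at a Benjamini-Hochberg FDR of 0.05. Positions and exon lengths came from GENCODE M21. The genes described and the 7 lists were chosen with earlier results of these data known. From each list the genes called against DIO (at most 4), or else the 2 with the smallest p against DIO, were named, beside a fixed set of feedback genes. No pair of livers in a group matched within counting noise.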

Additional observations from a re-analysis of the deposited data

How the results depend on the processing

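None of the 5 tested genes was called in any of 3 comparisons under any of 24 alternatives (other scalings, filters, tools and livers), and the smallest adjusted p was 0.0519, for Nr1h4 between GB-IL and DIO without GB-IL 4. In all, 344 log2 fold changes kept their sign and 16 turned. Between GB-IL and DIO, voom gave 0.048 for Nr0b2 and -0.157 for Ptpn11. With GB-IL 1 and 2 both left out, chosen after seeing the data, Nr0b2 was 0.507 and Ptpn11 -0.061, and Nr1h4 between GB-IL and RYGB was 0.233. Leaving out 1 liver at a time, Nr0b2 ran from -0.96 to 0.192 and Ptpn11 from -0.174 to 0.196 between GB-IL and DIO, Nr5a2 from -0.016 to 0.329 between RYGB and DIO, and Rxra from -0.135 to 0.038 and Ptpn11 from -0.296 to 0.075 between GB-IL and RYGB.

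DESeq2 called 1292, 97 and 845 genes in GB-IL against DIO, RYGB against DIO and GB-IL against RYGB, 8, 1 and 4 of them from the lists. Voom called 1690 in RYGB against DIO (18 from the lists), 115 in GB-IL against RYGB, and 1 list gene in GB-IL against DIO. Without a filter 51 genes were called between GB-IL and RYGB and 1 list gene between GB-IL and DIO, and with a mean of at least 50 counts also 1. Fitting the 2 groups compared alone gave 0 genes for GB-IL against DIO (0 from the lists) and 33 for RYGB against DIO (1 from the lists). Without both GB-IL 1 and 2 the GB-IL calls against DIO were 0 and 0. Leaving out 1 liver at a time gave 0 to 3572 genes (0 to 29 from the lists) in GB-IL against DIO, 0 to 5 in RYGB against DIO and 0 to 3120 (0 to 27 from the lists) in GB-IL against RYGB. With the replicate number as a replicate block, 1 gene and 0 list genes were called in GB-IL against DIO; deviations of same-numbered livers correlated above 0.1 in 2 of 13 pairs. The cause was not tested.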
